A study of Rattus norvegicus with 65 samples.

Results

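RNA sequencing of primary cultures of neonatal rat cardiomyocytes, the contracting cells of the heart, gave the transcripts that stood at 0.25 of their control level or less after 6 hours of doxorubicin (Dox). The genes were chosen by their own 6-hour values: a gene was included when its mean was 5 CPM (counts per 1000000 counts of the library) or more in the 6-hour control of Dox and when the ratio of its mean CPM in Dox to that control was 0.25 or less. Of the 14554 genes in the table, 10847 reached the 5 CPM, and 132 of these (1.22%) met the ratio. The 132 genes include 122 with a symbol, all protein coding, and 10 known here by identifier only. In 131 of them each 6-hour control library held 10 counts or more.

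Cultures received 5-fluorouracil (5FU) at 10 mM, acetaminophen (Ace) at 2.5 mM, Dox at 1.25 μM or the solvent DMSO alone, and were lysed after 6 or 24 hours. The 5FU cultures held 1% DMSO, as did their control DMSO1, and the Ace and Dox cultures held 0.25%, as did the shared control DMSO2. There were 6 libraries each of 5FU, DMSO1 and Ace at 6 hours and of 5FU and DMSO1 at 24 hours, and 7 libraries each of the other groups, 65 in all, with totals from 14332827 to 25738297 counts. Cells from 3 litters were mixed before plating and had been serum starved overnight, so the libraries are parallel cultures of 1 mixed cell preparation and p-values measure the spread between those cultures only. CPM was summed over 9 cardiomyocyte markers, which include Myh6, Tnnt2 and Actn2. At 6 hours the sum ran from 39960 to 45010 in DMSO2 and from 37070 to 46400 in Dox. Single markers moved both ways within it: 3 of the 9 lay below control, among them Myh6 at a ratio of 0.649, while Nppa was at 1.51. At 24 hours the sum ran from 34260 to 44070 in DMSO2 and from 18730 to 25550 in Dox. Nppa made up much of that Dox sum, with a mean of 12570 CPM in Dox and 1059 CPM in DMSO2. The other 8 markers were lower in Dox at 24 hours, from Myh6 at a ratio of 0.0593 to Tnnt2 at 0.893. Every gene was measured in bulk, where fewer cells of a type and less RNA per cell cannot be told apart.

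Dox intercalates into DNA and poisons topoisomerase II, an enzyme that cuts and rejoins DNA strands to relieve twisting. The level of an mRNA reflects the balance of its synthesis and its decay, so a transcript that is no longer made falls at the pace of its own decay. 5FU is a pyrimidine analogue that inhibits thymidylate synthase and is built into RNA, and Ace is an analgesic known for liver injury at high dose. Neither synthesis nor decay of RNA was measured in these cultures.

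Promoters of 3 of the genes are shown for the place of their transcripts in the set or their role in the heart: Lrrc10 had the lowest ratio to control at 6 hours, Cldn5 held 3 counts or fewer in every Dox library at 24 hours, and Nkx2-5 encodes a transcription factor of heart muscle. Each sequence runs 5′ to 3′ from 250 bases before to 50 bases after the start of the gene in RefSeq, build GRCr8. Capitals mark matches, on either strand, to a TATA box (TATAAA, in 14.3% of all 27457 promoters of that table), a GATA motif (AGATAA, 11.3%), an Nkx2-5 motif (TNAAGTG, 11.4%), a GC box (GGGCGG, 34.9%) or a CCAAT box (CCAAT, 37.7%).
Lrrc10, chr7:54572685-54572984, plus strand: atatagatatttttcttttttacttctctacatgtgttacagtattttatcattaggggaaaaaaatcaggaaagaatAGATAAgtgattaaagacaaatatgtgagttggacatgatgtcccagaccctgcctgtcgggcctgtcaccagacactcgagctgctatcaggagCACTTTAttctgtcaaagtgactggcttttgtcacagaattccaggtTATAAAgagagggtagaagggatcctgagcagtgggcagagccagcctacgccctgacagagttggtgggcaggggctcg
Nkx2-5, chr10:16848350-16848649, plus strand: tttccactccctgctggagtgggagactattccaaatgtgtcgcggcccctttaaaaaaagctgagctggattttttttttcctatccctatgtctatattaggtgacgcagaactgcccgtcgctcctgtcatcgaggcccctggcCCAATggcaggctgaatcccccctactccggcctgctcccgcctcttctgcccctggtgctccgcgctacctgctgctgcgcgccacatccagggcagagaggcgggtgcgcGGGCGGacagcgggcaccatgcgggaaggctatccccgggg
Cldn5, chr11:95718549-95718848, minus strand: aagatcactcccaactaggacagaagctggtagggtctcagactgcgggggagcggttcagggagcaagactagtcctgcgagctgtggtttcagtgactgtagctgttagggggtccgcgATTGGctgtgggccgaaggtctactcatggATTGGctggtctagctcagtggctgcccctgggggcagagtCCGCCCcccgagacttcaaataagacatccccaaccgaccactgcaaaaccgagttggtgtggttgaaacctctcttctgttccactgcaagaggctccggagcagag
The Lrrc10 promoter held a TATA box whose first base lay at position -30 from the start, a match to the Nkx2-5 motif at -77 and a GATA motif at -172. No motif overlapped another in it. The Nkx2-5 promoter held a CCAAT box at -103 and a GC box at 10, and the Cldn5 promoter held CCAAT boxes at -129 and -99 and a GC box at -58. An E-box (CACGTG, 6.65%) and a cyclic AMP response element (TGACGTCA, 1.91%) were searched as well and had no match in these windows. Only 98 of the 132 genes (74.2%) matched a promoter, which is under 80%, so a check of motifs or base composition over the whole set is void.

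At 6 hours the ratio of Dox to control, which chose the genes and is given as a description, had a median of 0.204 and ran from 0.00604 to 0.2499. All 7 Dox libraries lay below all 7 control libraries in 130 of the 132 genes, as they did for 35.8% of the genes of 5 CPM or more, and the exceptions have no symbol. Most of the transcripts were strongly reduced rather than absent: 9 of the 132 were at 0.1 of control or less. The median ratio of the 10847 genes was 0.883 (-0.18 on the log2 scale), so CPM in Dox stood below control for the typical gene. With TMM or DESeq2 scaling in place of CPM, 89 and 84 genes met the rule, all among the 132. Just inside the limit were Gli4 at 0.249, Abra at 0.2499 and Chrm2 at 0.2499, and just outside were Lbh at 0.2502, Npr3 at 0.251 and Tek at 0.252. Summed over the set, CPM ran from 5804 to 6384 in the control libraries and from 876 to 1023 in the Dox libraries, and the median coefficient of variation between libraries was 8.94% in control and 19.4% in Dox.

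**Figure D1:**
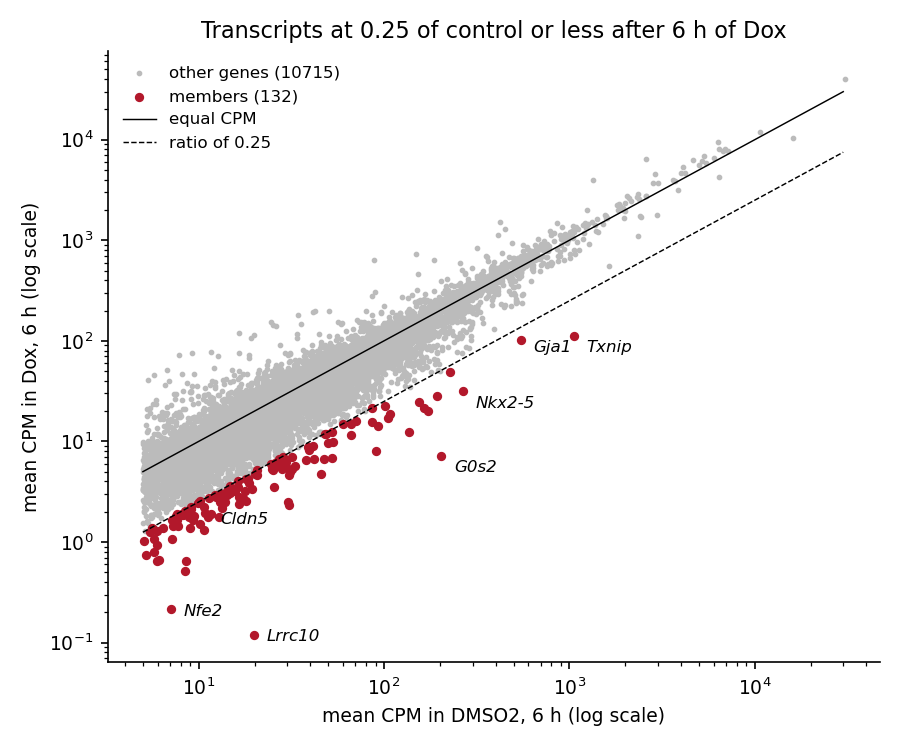
Mean CPM of 10847 genes in the 7 DMSO2 libraries (x axis) and the 7 Dox libraries (y axis) at 6 hours, both on log scales, with the 132 chosen genes in red, the solid line at equal CPM and the dashed line at a ratio of 0.25. Lrrc10 and Nfe2 lie farthest below the dashed line, and Txnip is the chosen gene with the highest CPM.

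Lrrc10, a leucine-rich repeat protein made in heart muscle, came closest to disappearing. Its CPM was 14.7, 19.96 and 25.8 (lowest, median and highest library) in the 6-hour control and 0, 0 and 0.491 in Dox. At 24 hours it was 40.4, 44.1 and 54.1 in control and 0, 0.185 and 0.840 in Dox. No Dox library at either time came near a control library, while the DMSO2 libraries themselves lay higher at 24 than at 6 hours. The log2 fold change at 24 hours was -7.36 ± 0.34 (SE, edgeR adjusted p = 3e-29).

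Nfe2, a leucine zipper subunit of the transcription factor NF-E2 known from blood platelet formation, was at 5.68, 7.17 and 8.46 CPM in the 6-hour control and at 0.0491, 0.200 and 0.437 CPM in Dox. By 24 hours its control had itself come down to 1.09, 1.97 and 2.27 CPM, against 0.272, 0.493 and 0.754 in Dox. The groups did not overlap at either time, but the gap narrowed from a ratio of 0.0302 to 0.282, with the control as well as Dox moving. At 24 hours Nfe2 was lower in Dox by the test (log2 fold change -1.89 ± 0.26 SE, edgeR adjusted p = 1.5e-09).

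G0s2, an inhibitor of the lipase that opens triglyceride stores, was at 190.2, 202.6 and 215.7 CPM in the 6-hour control and at 5.35, 7.58 and 8.59 CPM in Dox. At 24 hours the control held 197.6, 215.4 and 241.9 CPM and Dox 4.16, 16.5 and 26.2 CPM. Pde7b, a phosphodiesterase that breaks down cyclic AMP, was at 7.46, 8.52 and 9.78 CPM in the 6-hour control and at 0.369, 0.551 and 1.06 CPM in Dox, and at 24 hours at 8.32, 10.2 and 11.2 CPM against 0.505, 0.733 and 1.11 CPM. Both genes were far below control in all 14 Dox libraries, with 24-hour log2 fold changes of -3.95 ± 0.20 for G0s2 and -3.76 ± 0.22 for Pde7b.

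Txnip, which binds thioredoxin and restrains glucose uptake, was the chosen gene with the highest control CPM. It was at 978, 1056 and 1131 CPM in the 6-hour control and at 94.7, 110.9 and 132.5 CPM in Dox, and at 24 hours at 693, 853 and 1043 CPM against 112, 158 and 286 CPM. Gja1, connexin 43, the main gap junction protein of ventricular muscle, was at 480, 548 and 609 CPM in the 6-hour control and at 85.2, 104.6 and 123.1 CPM in Dox. At 24 hours its control was at 1124, 1174 and 1256 CPM and Dox at 136.1, 149.5 and 179.8 CPM. The Gja1 control thus stood higher at 24 than at 6 hours, and the Dox libraries stood far below it at both. Nkx2-5, a homeodomain transcription factor needed for heart formation, was at 230.0, 268.0 and 304.5 CPM in the 6-hour control and at 27.0, 31.2 and 36.8 CPM in Dox, and at 24 hours at 234.5, 263.2 and 271.2 CPM against 36.9, 42.9 and 44.0 CPM. The values of Txnip, Gja1 and Nkx2-5 in Dox lay below every control library at both times, with 24-hour log2 fold changes of -2.22 ± 0.13, -2.99 ± 0.08 and -2.66 ± 0.07.

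Among genes with a symbol, the others of the 8 lowest ratios at 6 hours were B3galt2, a galactosyltransferase, at 0.0820, Tmem51, a transmembrane protein, at 0.0906, and Epn3, an epsin of membrane uptake, at 0.103. At 24 hours their ratios were 0.158, 0.145 and 0.127, and all 3 were lower in Dox by the test. In all 3 every DMSO2 library of 24 hours lay below every DMSO2 library of 6 hours, while the Dox libraries of 6 and 24 hours overlapped.

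The first question was whether the transcripts had come back by 24 hours. Most had not: in the 24-hour libraries, which the choice of genes did not use, 125 of the 132 were lower in Dox than in DMSO2 by the edgeR quasi-likelihood test (Benjamini-Hochberg FDR below 0.01 over all 14554 genes). Over all genes 41% were called lower in this comparison, and 47% of the genes of 5 CPM or more. The median log2 fold change of the 132 was -2.24, against 0.00 over all genes and -0.12 over the genes of 5 CPM or more. No gene of the set was called higher, where 40.4% of all genes and 37% of those of 5 CPM or more were. At an unadjusted p under 0.05 edgeR gave 0 higher as well, and the DESeq2 Wald test gave 0 higher and 125 lower. In 121 genes all Dox libraries lay below all control libraries at 24 hours, as they did for 39% of the genes of 5 CPM or more.

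By size, 75 of the 132 were still at a ratio of 0.25 or less at 24 hours, as were 5.49% of the genes of 5 CPM or more, 43 lay between 0.25 and 0.5, 11 between 0.5 and 1, and 3 at 1 or above. The median ratio was 0.218. Within Dox the CPM at 24 hours was at least 2 times that at 6 hours in 23 genes (12.7% of the genes of 5 CPM or more) and 0.5 times or less in 29 (10.3%), with a median ratio of 1.18. These ratios are a description, since low 6-hour Dox values, their denominator, chose the genes and tilt them upwards. The median thus hides genes whose level in Dox was higher at 24 than at 6 hours and others whose level was lower, and neither was tested.

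**Figure D2:**
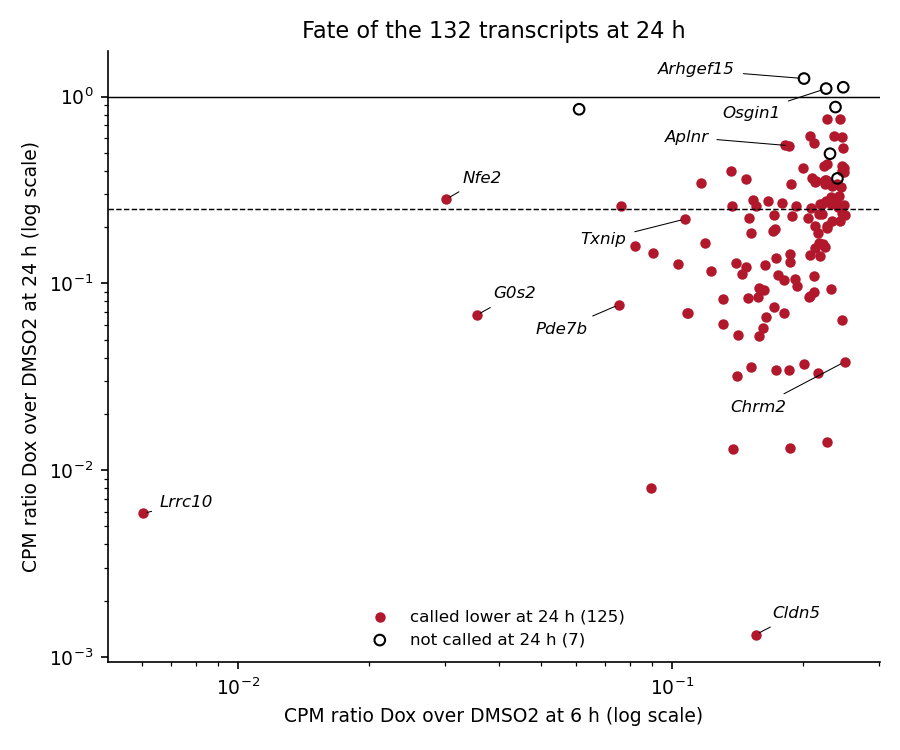
Ratio of mean CPM in Dox to DMSO2 at 6 hours (x axis) and at 24 hours (y axis) for the 132 genes, on log scales, with genes called lower at 24 hours filled and genes not called open, the solid line at a ratio of 1 and the dashed line at 0.25. Of the 132 points, 75 lie on or under the dashed line, and Arhgef15, Osgin1 and Kif26b lie above the solid line. Cldn5 and Tgm3 are drawn at their measured ratios, although all their 24-hour Dox libraries held 3 counts or fewer.

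Among the lowest at 24 hours was Cldn5, the tight junction protein of blood vessel lining, whose 24-hour Dox libraries all held 3 counts or fewer. Its CPM was 10.4, 11.2 and 12.3 in the 6-hour control, 0.902, 1.28 and 3.03 in Dox at 6 hours, 19.6, 24.0 and 32.8 in the 24-hour control and 0, 0 and 0.183 in Dox at 24 hours, at least 152-fold lower when set against a floor of 3 counts per library. Fam163b was at a ratio of 0.138 at 6 hours and 0.0130 at 24 hours (log2 fold change -6.30 ± 0.24 SE, edgeR adjusted p = 8.3e-34). Epha3, an ephrin receptor, went from 0.187 to 0.0132 (-6.28 ± 0.23, edgeR adjusted p = 4.9e-35), and C6h14orf180 from 0.228 to 0.0142 (-6.19 ± 0.22, edgeR adjusted p = 9.1e-36). For C6h14orf180 the 24-hour ratio also reflects a control that stood 3.15 times above its 6-hour level. Among the genes without a symbol, 100911101 went from a ratio of 0.0894 to 0.0081 (-7.03, edgeR adjusted p = 9.7e-43). Tgm3, a transglutaminase, was at the floor in Dox at 24 hours and at least 11.7-fold lower than control.

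Of the 7 genes not called lower at 24 hours, 4 have a symbol. Arhgef15, known from blood vessels, was at 7.16, 8.86 and 11.1 CPM in the 6-hour control, 1.23, 1.51 and 3.23 CPM in Dox at 6 hours, 6.25, 7.96 and 9.08 CPM in the 24-hour control and 7.74, 9.11 and 12.2 CPM in Dox at 24 hours. The groups were apart at 6 hours and overlapped at 24 hours (log2 fold change 0.27 ± 0.14 SE, edgeR adjusted p = 0.068). Kif26b, a kinesin family protein, was at 34.2, 50.1 and 58.6 CPM in the 6-hour control and 8.87, 11.2 and 15.2 CPM in Dox, then at 20.8, 30.3 and 34.2 CPM against 28.5, 30.4 and 41.6 CPM at 24 hours. Its 24-hour groups overlapped (0.13 ± 0.13, edgeR adjusted p = 0.33), with the control lower than at 6 hours. Osgin1, an oxidative stress response gene, was at 12.3, 13.9 and 16.8 CPM in the 6-hour control and 2.08, 3.60 and 4.0 CPM in Dox, then at 8.60, 9.95 and 11.2 CPM against 4.24, 9.99 and 15.5 CPM. Its Dox libraries at 24 hours lay on both sides of the control (0.07 ± 0.15, edgeR adjusted p = 0.63). Aff3, a nuclear regulator of transcription, had a 24-hour log2 fold change of -0.22 ± 0.13 (edgeR adjusted p = 0.092). Nrf1, a regulator of genes for respiration, was called lower by a small margin, with a ratio of 0.758 and a log2 fold change of -0.45 ± 0.05 (edgeR adjusted p = 2.1e-11).

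**Figure D3:**
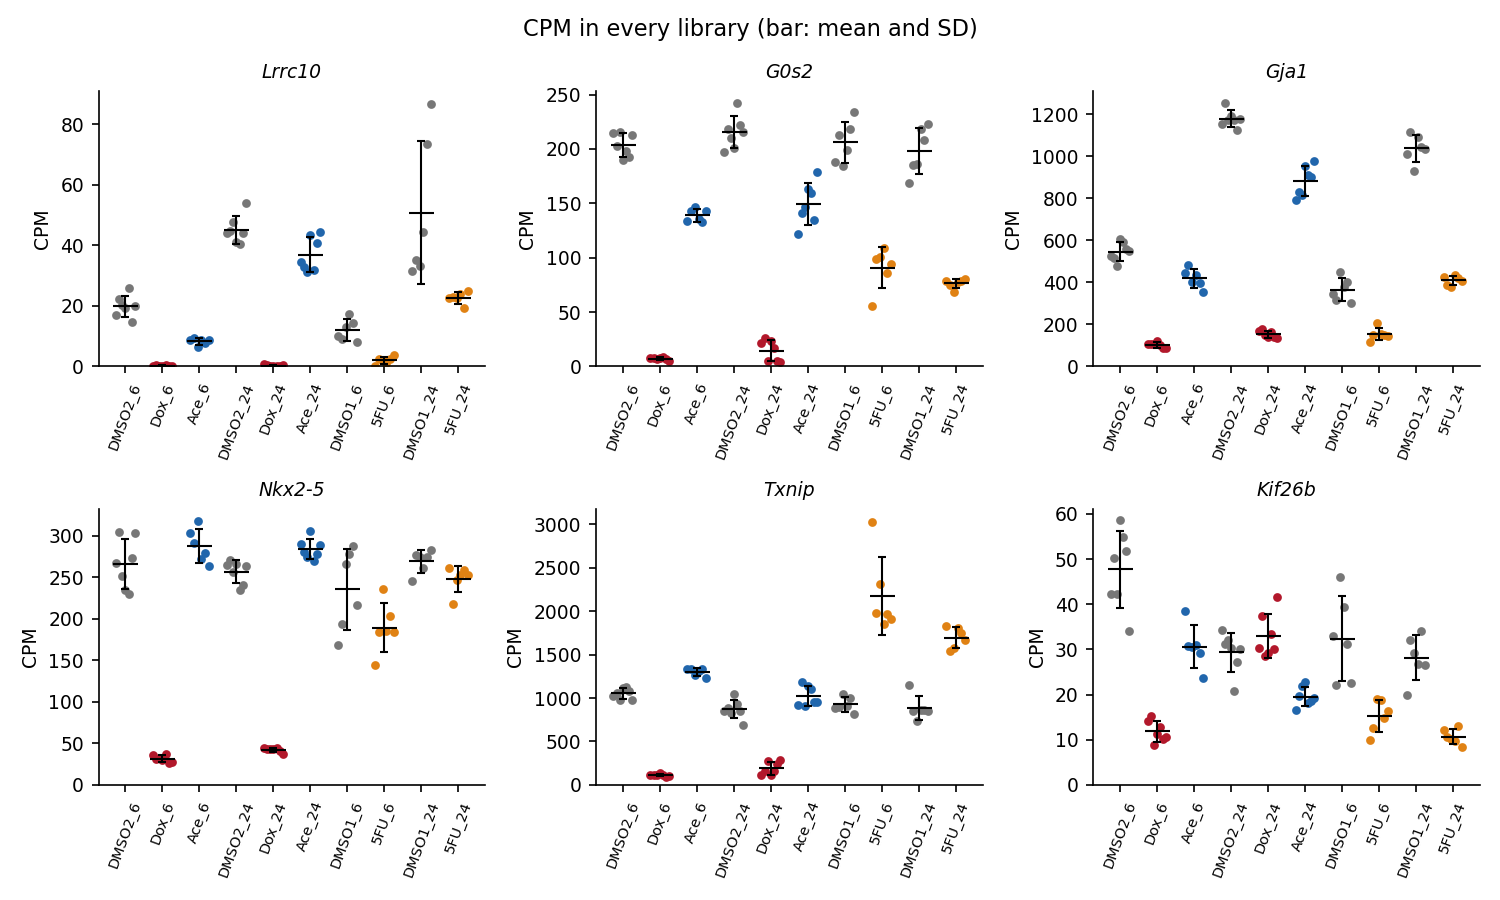
CPM of 6 of the genes in each of the 65 libraries (points), with group mean and SD (bars), by group of drug or control and hours on the x axis. For Lrrc10, G0s2, Gja1, Nkx2-5 and Txnip every Dox library lies under every DMSO2 library of its time, and for Kif26b the 24-hour groups overlap.

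Receptors for hormones, transmitters and peptides made up 8 of the 132, and all 8 were lower in Dox at 24 hours. Kinds such as this were assigned after the genes were known, so their counts describe the set only. Here and in the kinds that follow, the counts are read beside the 94.7% of the whole set that were lower in Dox at 24 hours. Of all genes 41% were. A kind whose genes were all or nearly all lower thus repeats the share of the set. Ednra, the endothelin A receptor, was at 140.0, 164.6 and 179.9 CPM in the 6-hour control and at 16.5, 21.4 and 26.4 CPM in Dox, and at 24 hours at 212.2, 226.4 and 234.3 CPM against 16.6, 18.8 and 19.7 CPM. Its Dox libraries stayed below all controls, with a log2 fold change of -3.65 ± 0.10 at 24 hours (edgeR adjusted p = 1.2e-42). Chrm2, the muscarinic receptor through which the vagus nerve slows the heart, was at the limit of the rule at 6 hours and at a ratio of 0.0380 at 24 hours (-4.78 ± 0.11, edgeR adjusted p = 1.3e-46). Gpr22, an orphan receptor found in heart, went from 0.152 to 0.0359. The adrenergic receptors Adrb1, at 0.218 and 0.236, and Adra1d, at 0.233 and 0.290, had similar ratios at the 2 times. Aplnr, the apelin receptor, stood at 0.186 at 6 hours and 0.545 at 24 hours, and Adgrl4, an adhesion receptor of blood vessels, at 0.207 and 0.0847.

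Ion channels, connexins and small GTPases that act on channels made up 7, all lower in Dox at 24 hours. Kcna4, the Kv1.4 channel of the transient outward potassium current, was at 5.02, 5.86 and 6.55 CPM in the 6-hour control and at 0.421, 0.701 and 1.23 CPM in Dox, and at 24 hours at 6.59, 8.54 and 9.18 CPM against 0.699, 1.77 and 3.58 CPM. Its groups did not overlap at either time, though the 24-hour Dox libraries spread widely. Kcnj11, the pore of the ATP-sensitive potassium channel of heart muscle, was at ratios of 0.141 and 0.128 at 6 and 24 hours, and Kcnj8, the pore of its vascular form, at 0.234 and 0.215. Gja4, connexin 37 of blood vessels, was at 0.194 and 0.0966. Rrad, a GTPase that holds back L-type calcium channels, was at 167.4, 170.4 and 179.8 CPM in the 6-hour control and at 14.7, 21.8 and 24.0 CPM in Dox, and at 24 hours at 203.5, 215.2 and 246.5 CPM against 33.4, 78.5 and 125.0 CPM. All Dox libraries were below control, and those of 24 hours covered a wider range than those of 6 hours. Its relative Rem1 was at ratios of 0.137 and 0.400.

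Transcription factors and chromatin regulators were the largest named kind, with 22 genes, of which 21 were lower in Dox at 24 hours, Aff3 being the exception. Beside Nfe2 and Nkx2-5 they include Tcf21, a factor of the epicardium and cardiac fibroblasts (ratios 0.235 and 0.277 at 6 and 24 hours), Mitf, a leucine zipper factor (0.193 and 0.259), Prdm16, a zinc finger factor (0.215 and 0.354), and Prdm1 (0.148 and 0.123). Several are zinc finger proteins of the Zfp and Zbtb series, whose similar sequences can make the assignment of reads to a gene uncertain.

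Muscle structure and turnover genes numbered 5, all lower in Dox at 24 hours. Speg, a kinase of striated muscle, went from a ratio of 0.212 to 0.0895 (-3.54 ± 0.10 at 24 hours, edgeR adjusted p = 2.9e-40). Klhl38, a kelch protein of muscle, was at 15.1, 16.1 and 17.5 CPM in the 6-hour control and at 2.57, 4.34 and 4.67 CPM in Dox, and at 24 hours at 13.8, 16.7 and 18.9 CPM against 3.23, 3.87 and 4.77 CPM. Neither control nor Dox moved much between the times, and they did not overlap. Abra, an actin-binding protein of muscle, was at 0.2499 and 0.234.

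Lipid, sugar and redox metabolism accounted for 11 genes, 10 of them lower in Dox at 24 hours and Osgin1 not called. Cpt1a, which admits long-chain fatty acids to mitochondria, was at ratios of 0.148 at 6 hours and 0.361 at 24 hours, and Plin4, a lipid droplet coat protein, at 0.181 and 0.0694. Dhcr7, the last enzyme of cholesterol synthesis, was at 0.248 and 0.529, and its control stood at 24 hours at 0.247 of the 6-hour level. The 5 glycosyltransferases were all lower at 24 hours, among them B3galt2 (0.0820 and 0.158), A4galt (0.131 and 0.0606), Abo (0.163 and 0.0916) and Mfng, a fringe enzyme that modifies Notch (0.246 and 0.0636).

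Adhesion, junction and cell surface signalling genes numbered 10, all lower in Dox at 24 hours, with a median ratio of 0.0984. They include Cldn5, Epha3, Pdgfra, the growth factor receptor that marks fibroblasts (0.173 at 6 hours and 0.137 at 24 hours), Flrt3 (0.162 and 0.0575) and Lrrc17 (0.173 and 0.0343). The 6 kinase and phosphatase signalling genes were all lower at 24 hours, among them Dusp10, a phosphatase that switches off stress kinases (0.208 and 0.615), and Map2k7, a kinase that switches on JNK (0.210 and 0.368). The 4 ubiquitin-system genes, the 4 RNA-processing genes, the phosphodiesterases Pde7b and Pde4a (0.187 and 0.143 for the latter) and the 27 genes of no common kind were all lower at 24 hours. Of the 10 genes without a symbol 7 were.

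Cell type markers were read beside these genes because several of them belong to blood vessels or fibroblasts. Of 9 endothelial markers, all but Flt1 were at a ratio of 0.5 or less at 6 hours, with a median of 0.340, and 8 were called lower in Dox at 24 hours. Their summed CPM ran from 272.8 to 346.2 in the 6-hour control and from 91.0 to 143.7 in Dox, and at 24 hours from 292.9 to 380.8 and from 35.0 to 73.9. Only Cldn5 of them is among the 132, and Pecam1 was not analysed here. The 10 fibroblast markers, with Pdgfra and Tcf21 among the 132, had a median ratio of 0.684 at 6 hours and 0.236 at 24 hours, and all 10 were lower at 24 hours. Cardiomyocyte markers had a median ratio of 1.17 at 6 hours and 0.299 at 24 hours, with 8 of 9 lower and 1 higher at 24 hours. The part of cell composition in the loss of the 132 transcripts was not tested.

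At 6 hours the macrophage markers (9 genes) had a median ratio of 1.16, the smooth muscle and pericyte markers (10 genes, with Kcnj8 among the 132) 1.02, the mesothelial markers (8 genes) 0.850 and the Schwann and neural markers (6 genes) 1.02. The medians of these lists at 24 hours were 0.463, 0.635, 0.592 and 0.995. Both medians of the smooth muscle and pericyte list hide genes that moved opposite ways. At 6 hours 5 of its 10 genes were below a ratio of 1, and 3 of these were at 0.5 or less. Myh11 stood at 2.68, Acta2 at 2.859 and Tagln at 2.611. At 24 hours 6 of the list were called lower and 3 higher in Dox, with Rgs5 at a ratio of 0.103 and Myh11 at 6.65. The mesothelial list was mixed too at 24 hours, with 5 lower and 3 higher. No list but the endothelial one had most of its markers at a ratio of 0.5 or less at 6 hours.

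Lists of genes by role, drawn up with earlier results of these data known, place the set among its relatives, and their counts are read beside the 41% of all genes that were lower and the 40.4% that were higher in Dox at 24 hours. Of 62 G protein-coupled receptors and regulators 7 are in the set, and in Dox at 24 hours 29 of the 62 were lower and 21 higher. The 72 ion channels and connexins hold 5 of the set, with 45 lower and 21 higher. Of 60 sarcomere and Z-disc genes 3 are in the set, with 50 lower and 8 higher. The 54 energy metabolism regulators hold 4, with 24 lower and 22 higher, and the 83 cardiac and developmental transcription factors hold Nkx2-5 and Tcf21, with 45 lower and 25 higher. Of 54 MAP kinase feedback genes Rrad and Dusp10 are in the set, with 16 lower and 32 higher, and of 44 ubiquitin ligases and F-box genes Klhl38 is, with 20 lower and 21 higher.

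The other lists hold none of the 132. Among 37 immediate early and AP-1 factors, 1 was lower and 31 were higher in Dox at 24 hours. The 61 Krüppel-like, ETS, Runx and other signal-responsive factors had 12 lower and 39 higher, the 63 BMP, TGF-beta, Notch and Wnt feedback genes 14 and 40, and the 65 cytokines, chemokines and growth factors 20 and 37. Mitosis and cell cycle genes, 78 in number, had 17 lower and 45 higher, the 18 circadian clock genes 6 and 8, and the 57 collagen, matrix and protease genes 34 and 11. The set was spread over several roles. The rule took 1.22% of the genes of 5 CPM or more, so most listed genes of any role lie outside it by its size alone. Only genes of 5 CPM or more could enter the set. These were 37 of the 62 G protein-coupled receptors and regulators and 25 of the 37 immediate early and AP-1 factors.

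The second question was what 5FU did to the same transcripts against its own control, DMSO1. At 6 hours 77 of the 132 were lower in 5FU and 9 higher (edgeR, FDR below 0.01), where 24.5% and 23.4% of all genes were (27.9% and 27.5% of the genes of 5 CPM or more). At 24 hours 74 were lower and 21 higher, where 27.8% and 28% of all genes were (28.5% and 34.1%). The median log2 fold change was -0.60 at 6 hours and -0.40 at 24 hours, against medians of 0.00 and -0.01 over all genes. By size, 40 genes were at a ratio of 0.5 or less in 5FU at 6 hours (3.61% of the genes of 5 CPM or more) and 31 at 24 hours (5.35%). In the 6-hour controls themselves, the 132 stood lower in DMSO1 than in DMSO2, with a median ratio of 0.804 against 0.953 for the genes of 5 CPM or more, a description only, since the DMSO2 values helped choose the genes and high ones were favoured.

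Among genes with a symbol, falls in 5FU at 6 hours were largest for B3galt2 (log2 fold change -3.11 ± 0.16), Cldn5 (-3.01 ± 0.40) and Fibin (ratio 0.119, edgeR adjusted p = 1e-22), and at 24 hours C6h14orf180 (-3.35 ± 0.18) and Fibin (-2.85 ± 0.18) were among the lowest. Tgm3 was at 3 counts or fewer in every 5FU library at 24 hours and at least 10.8-fold lower than control. Ednra was at 88.2, 97.0 and 146.4 CPM in DMSO1 and 19.1, 38.1 and 46.0 CPM in 5FU at 6 hours, and at 157.2, 214.3 and 229.1 CPM against 72.3, 75.1 and 78.3 CPM at 24 hours. Gja1 was at 304.1, 360.2 and 451.4 CPM in DMSO1 and 114.0, 151.0 and 205.7 CPM in 5FU at 6 hours, and at 931.5, 1040.0 and 1115 CPM against 379.0, 414.6 and 433.4 CPM at 24 hours. Neither gene overlapped between 5FU and control, with log2 fold changes at 6 and 24 hours of -1.48 ± 0.09 and -1.44 ± 0.09 for Ednra and -1.18 ± 0.08 and -1.34 ± 0.08 for Gja1.

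Lrrc10 fell in 5FU at 6 hours (log2 fold change -2.55 ± 0.28, edgeR adjusted p = 1.1e-11) and at 24 hours (-1.14 ± 0.21, edgeR adjusted p = 3.4e-06). The difference between the times was not tested. Its 24-hour control was uneven: DMSO1 libraries 5 and 6 were at 73.7 and 86.9 CPM, and the others ran from 31.4 to 44.5 CPM. Without DMSO1 library 6 the 24-hour value was -0.92. Of the 77 genes lower in 5FU at 6 hours, 54 were lower at 24 hours too (70.1%), 17 were not called and 6 were higher (7.79%). Of the genes of 5 CPM or more that were lower at 6 hours, 50.4% were lower and 13.8% higher at 24 hours. Nkx2-5 is one of the 17, at 169.1, 241.9 and 287.4 CPM in DMSO1 and 144.6, 185.0 and 235.5 CPM in 5FU at 6 hours, an overlapping difference of -0.24 ± 0.07 (edgeR adjusted p = 0.0045) that lost its call without any 1 of 5 libraries (5FU libraries 1 or 6, DMSO1 libraries 3, 4 or 5), with adjusted p from 0.012 to 0.037. Gpr22 was at a ratio of 0.199 in 5FU at 6 hours and 0.753 at 24 hours, and Nfe2 at 0.287 and 0.873. Rab3a, a GTPase of secretory vesicles, and Syt14, of the synaptotagmin family, are among the 6, with ratios of 0.730 and 0.537 at 6 hours and 1.68 and 1.62 at 24 hours. Without DMSO1 library 3, Syt14 lost its call at 6 hours (edgeR adjusted p = 0.041).

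Txnip went the other way in 5FU. It was at 812, 908 and 1043 CPM in DMSO1 and 1856, 1978 and 3032 CPM in 5FU at 6 hours, and at 735.5, 854.7 and 1150.0 CPM against 1548, 1710.0 and 1833 CPM at 24 hours. All 5FU libraries were above all control libraries at both times, with log2 fold changes of 1.32 ± 0.14 (edgeR adjusted p = 2.5e-12) and 0.94 ± 0.14 (edgeR adjusted p = 2.5e-08). Elac1, an enzyme that trims the ends of transfer RNA, was higher too (1.02 ± 0.08 at 6 hours and 0.38 ± 0.08 at 24 hours), as were Map2k7 and Mettl7a at both times. Map2k7 lost its 24-hour call without DMSO1 library 6 (edgeR adjusted p = 0.013). Adrb1 was higher in 5FU at 6 hours (0.82 ± 0.14) and had a value of -0.38 ± 0.14 at 24 hours (edgeR adjusted p = 0.011), and the change between the times was not tested. Klhl38 was at 14.9, 18.3 and 19.3 CPM in DMSO1 and 21.6, 24.9 and 26.1 CPM in 5FU at 24 hours, with no overlap (0.48 ± 0.11, edgeR adjusted p = 8e-05).

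At 24 hours 72 genes were lower in both Dox and 5FU, among the 125 lower in Dox and the 74 lower in 5FU, and all 21 genes that were higher in 5FU were lower in Dox, among them Txnip, Cpt1a, Abo and Klhl38. Of the genes of 5 CPM or more, 61.8% of those lower in 5FU and 36.6% of those higher in 5FU were lower in Dox. The 2 comparisons have separate controls, and with 125 of the 132 lower in Dox a near-complete overlap follows from that count alone. A comparison of the Dox effect with the 5FU effect over the set is tilted towards Dox, since a fall in Dox chose the genes. Tested against each other, the Dox effect lay below the 5FU effect in 113 of the 132 genes (35.4% of all genes, 42.9% of those of 5 CPM or more) and above it in 4 (35.8% and 32.5%), with a median difference of -1.96 on the log2 scale. The 4 were Arhgef15, Fibin, Chac1 and Kif26b, and Arhgef15 lost its call without any 1 of 12 of the libraries compared, with adjusted p up to 0.024. Fibin was at a ratio of 0.137 in 5FU and 0.563 in Dox, a difference of 1.95 ± 0.23 (edgeR adjusted p = 3e-11), and Kif26b differed by 1.52 ± 0.19 (edgeR adjusted p = 1.9e-10). Among the 15 with no called difference were Kcna4 (-0.52 ± 0.25, edgeR adjusted p = 0.051), Prdm16 (-0.33 ± 0.16, edgeR adjusted p = 0.05) and Rem1 (-0.10 ± 0.16, edgeR adjusted p = 0.56).

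**Figure D4:**
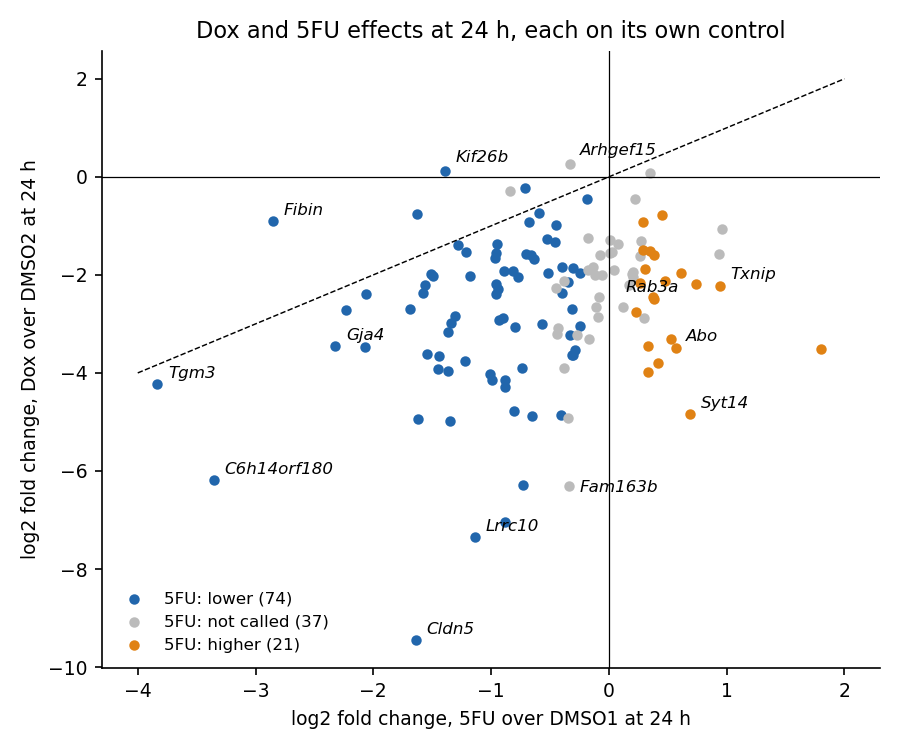
log2 fold change of the 132 genes in 5FU over DMSO1 (x axis) and in Dox over DMSO2 (y axis) at 24 hours, coloured by the call in 5FU (74 lower, 37 not called, 21 higher), with the dashed line where both are equal. Most points lie under the dashed line, and Kif26b, Fibin and Arhgef15 lie above it. The choice of genes by a fall in Dox favours points under that line. Cldn5 in Dox, and Tgm3 in both drugs, are drawn at fitted values that rest on 3 counts or fewer a library.

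For Ace, which shares its controls with Dox, the 6-hour ratios are a description, since their control libraries chose the genes. The median ratio was 0.714 (0.986 for the genes of 5 CPM or more), and 25 genes were at 0.5 or less (0.903% of the genes of 5 CPM or more). Epn3 was lowest among genes with a symbol at 0.298, with Plin4 at 0.356 and Nfe2 at 0.360, and Txnip was at 1.24. At 24 hours 66 of the 132 were lower in Ace and 6 higher by edgeR, where 19.1% and 18.2% of all genes were (19.5% and 20.8% of the genes of 5 CPM or more), with a median log2 fold change of -0.32 and 13 genes at a ratio of 0.5 or less (1.57% of the genes of 5 CPM or more).

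Gja4 (log2 fold change -1.94 ± 0.17), Epn3 (-1.67 ± 0.10) and Smim5 (-1.62 ± 0.11) had the lowest values in Ace at 24 hours. Dhcr7 (0.70 ± 0.10), Osgin1 (0.68 ± 0.14) and Pnma2 (0.33 ± 0.07) had the highest values among those called. Gja1 was at 794.0, 901.9 and 978.3 CPM in Ace at 24 hours, below all 7 control libraries (-0.47 ± 0.07, edgeR adjusted p = 1.3e-07), while Nkx2-5, at 270.0, 280.3 and 306.2 CPM, overlapped its control (0.09 ± 0.07, edgeR adjusted p = 0.29). Lrrc10 was at 31.2, 34.4 and 44.4 CPM and overlapped as well (-0.35 ± 0.19, edgeR adjusted p = 0.13). A comparison of Dox with Ace over the set is tilted towards Dox too, since a fall in Dox chose the genes. Tested directly, Dox lay below Ace at 24 hours in 124 of the 132 genes (39.9% of all genes, 46.9% of those of 5 CPM or more) and above it in Arhgef15 and Kif26b (40.7% and 36.7%), with a median log2 difference of -1.98.

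**Figure D5:**
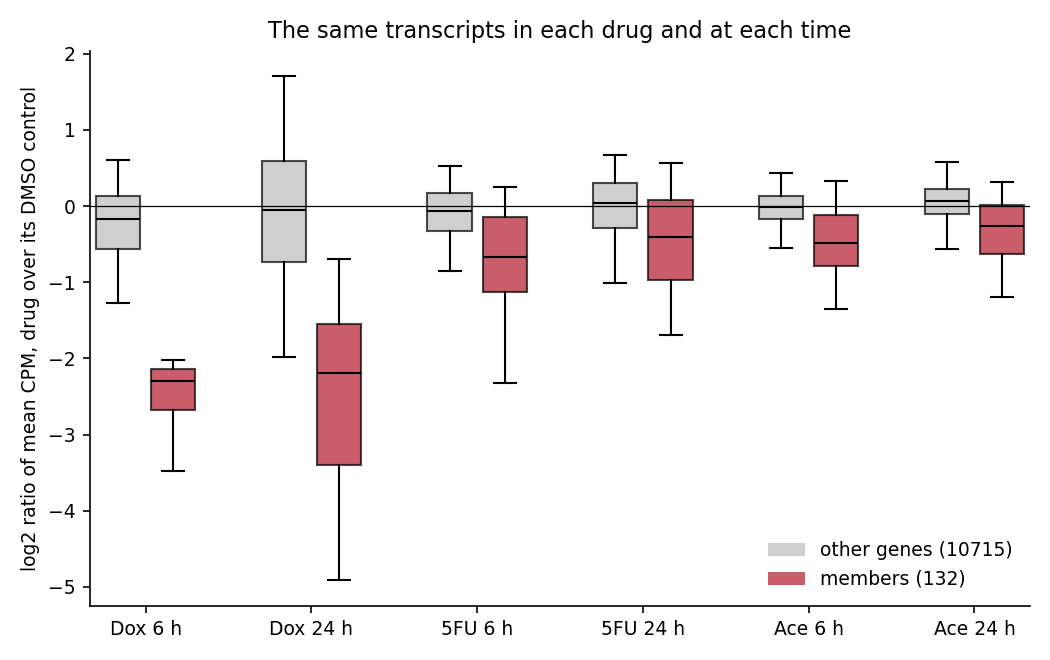
log2 ratio of mean CPM in each drug to its own DMSO control at 6 and 24 hours for the 132 genes (red) and the 10715 other genes of 5 CPM or more (grey), with boxes at the quartiles, lines at the medians and whiskers at the 5th and 95th percentiles. At 6 hours the position of the red Dox box (median ratio 0.204) was set by the choice of genes, and at 24 hours the red box is lowest in Dox (0.218), while the red medians in 5FU and Ace lie between 0.626 and 0.832.

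Culture time was read in DMSO1, whose libraries the rule did not use. Between 6 and 24 hours 58 of the 132 genes went up and 28 went down in DMSO1 (edgeR, FDR below 0.01), where 25.9% and 27.9% of all genes did (28.1% and 32.7% of the genes of 5 CPM or more), with a median log2 change of 0.17. Cldn5 (5.08 times), C6h14orf180 (5.02 times) and Lrrc10 (4.24 times) had the largest ratios of 24 to 6 hours, and Krt18l1 (0.0894) and Dhcr7 (0.215) were among the lowest. Krt18, a relative of Krt18l1, was not among the genes analysed here, and the Krt18l1 counts may hold its reads. Lrrc10 ranged from 31.4 to 86.9 CPM in DMSO1 at 24 hours, with libraries 5 and 6 highest. A ratio to control at 24 hours therefore holds the change of the control as well as that of the drug. The 132 lie on 19 chromosomes of the RefSeq assembly, and Cyb561d1 and Atxn7l2, Fam151a and Acot11, and Pcare and Togaram2 are next to each other there. Whether the ends of these pairs overlap, so that their reads may not be told apart, was not checked. For 1 gene without a symbol, at a ratio of 0.0764 at 6 hours, the sum with Sbk1 (ratio 2.13) was at 0.448, and its own value is uncertain.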

How the data were processed

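RNA was measured in 65 libraries of primary neonatal rat cardiomyocytes. The authors made the deposited estimated counts with kallisto on a rat Ensembl transcriptome (0.46.0 in the submitters' processing notes, which also name DESeq2), collapsed transcripts to Entrez genes with tximport, and dropped genes of low count. The values are whole numbers and not normalized, and each of the 14554 genes has 10 counts or more in at least 6 libraries.

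Symbols came from RefSeq (GRCr8, names and neighbours only) for 14009 identifiers. The table's columns name the group but no replicate number, so libraries were numbered within groups as names only. Counts were TMM-scaled and fitted in R 4.3.3 with edgeR 4.0.16 (glmQLFit, glmQLFTest) in 1 model of 10 groups, with Benjamini-Hochberg FDR below 0.01 over all genes. The fold change of 24-hour Dox, 5FU and Ace is against their own DMSO control. The standard error is the log2 fold change divided by the square root of F. Contrasts that share the rule's libraries were not tested. The test was tried on simulated data. DESeq2 1.42.0 and other scalings, filters and thresholds were alternatives.

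The genes, lists and tests were chosen with earlier results of these data known. Genes named were the 8 lowest ratios, the 4 highest CPM, the 5 highest and 5 lowest 24-hour changes in Dox, up to 4 members of each of 14 role lists, the 3 extremes of each called direction in 5FU and Ace, and the 3 nearest the limit on each side. Other members named as examples, and the kinds, were chosen after their values were seen, and 1 kind is not reported here. Depth (14332827 to 25738297 counts a library) limits only the lowest genes: 11908 genes had 10 counts or more in every library.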

Additional observations from a re-analysis of the deposited data

Results flagged for a closer look

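Among the 14 genes given with values by library, in 10 groups each (140 groups of 6 or 7 libraries), 5 groups held a library set apart from the others by more than Dixon's 95% limit, and chance flags about 1 in 20 groups. Txnip was at 1150.0 CPM in library 1 of DMSO1 at 24 hours, with 863.9 CPM next. Nkx2-5 was at 218.1 CPM in library 2 of 5FU at 24 hours, with 247.1 CPM next. Arhgef15 was at 3.23 CPM in library 4 of Dox at 6 hours, with 2.01 CPM next. Rrad was at 246.5 CPM in library 4 of DMSO2 at 24 hours, with 219.3 CPM next. Ednra was at 146.4 CPM in library 3 of DMSO1 at 6 hours, with 109.7 CPM next.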

How the results depend on the processing

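No paired analysis was possible because the columns carry no replicate numbers. The number of genes that met the rule was 9 at a ratio of 0.1, 1189 at 0.5 and 84 with DESeq2 size factors, and with 1 library left out it ran from 118 (without Dox library 6) to 138. At an FDR below 0.1 there was 1 gene higher in Dox at 24 hours, 14 in 5FU at 6 hours and 14 in Ace at 24 hours, and fitting the compared groups alone gave 11 higher in Ace. With a log2 fold change of at least 1 as well, 35 were lower and 2 higher in 5FU at 6 hours, 30 and 1 in 5FU at 24 hours, 16 and 0 in Ace at 24 hours, and 7 and 21 in DMSO1 over time, with 2 above the 5FU effect and 0 above Ace. Leaving out libraries gave 125 to 126 genes lower and 0 higher in Dox at 24 hours, 74 to 78 and 8 to 11 in 5FU at 6 hours, 69 to 75 and 17 to 23 in 5FU at 24 hours, 57 to 66 and 4 to 6 in Ace, 25 to 30 and 56 to 59 in DMSO1 over time, 111 to 113 and 3 to 5 for Dox against the 5FU effect, and 122 to 124 and 2 to 3 for Dox against Ace. Scaling by library size alone gave 54 genes lower in Ace at 24 hours, 80 in 5FU at 6 hours and 72 in 5FU at 24 hours. Fits of the compared groups alone gave 70, 69 and 80. All 125 calls in Dox at 24 hours held with each library left out, while 7 of 86 in 5FU at 6 hours, 13 of 95 in 5FU at 24 hours and 13 of 72 in Ace lost theirs in at least 1 run. No called gene changed sign with library size, DESeq2 size factors or the DESeq2 Wald test, and Speg and Nrf1 in 5FU at 24 hours lost their calls in some settings. With Dox library 2 of 6 hours and Dox library 7 of 24 hours left out, chosen after seeing the data, 133 genes met the rule. The rule uses no 24-hour library, and leaving out Dox library 2 of 6 hours alone gave the same 133. The cause of these shifts was not tested.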

Other observations

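The 7 Dox libraries of 24 hours differed among themselves in several of these genes, noticed after the values were seen and not tested. G0s2 was at 21.3, 26.2, 23.8 and 16.5 CPM in libraries 1, 2, 4 and 5 and at 5.28, 4.67 and 4.16 CPM in libraries 3, 6 and 7. Rrad was at 125.0, 114.7, 89.3 and 78.5 CPM in libraries 1, 2, 4 and 5 and at 38.6, 33.4 and 41.5 CPM in libraries 3, 6 and 7. Txnip lay the other way round, at 117.3, 158.1, 111.8 and 156.1 CPM in libraries 1, 2, 4 and 5 and at 274.3, 240.8 and 286.3 CPM in libraries 3, 6 and 7. Library 7 has the highest total of its group, 25738297 counts, and a median log2 level of the 132 genes of -2.69 against the 6-hour control, where the other libraries range from -2.49 to -2.17.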
